A study of Mus musculus with 10 samples.

Results

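The Eph receptors and their ephrin ligands were described in *in vitro* PGCs (iPGCs) of the mouse, which are germ cell-like cells obtained from differentiating embryonic stem cells (ESCs), and in sorted somatic cells and ESCs. The members were 10 genes, made up of the 5 receptor genes *Epha1*, *Epha2*, *Epha4*, *Ephb2* and *Ephb4* and the 5 ligand genes *Efna1*, *Efna4*, *Efna5*, *Efnb1* and *Efnb2*. All probe sets that the platform annotation names for a member were taken, which gave 22 of the 45101 probe sets on the array and 9 of 18193 genes with their own symbol. The annotation used names no probe set for *Ephb2*, so 4 receptors and 5 ligands were measured. Of the 22 probe sets, 20 passed the filter on low signals and were tested, and at least 1 of them belonged to each of the 9 measured genes.

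RNA came from 5 sorted populations with 2 arrays each. Oct4-Gfp iPGCs (Oct4-gfp+/cKit bright) were sorted at day 6 from embryoid bodies (EBs) of the Oct4-Gfp line, which has a mixed genetic background and a green reporter of *Pou5f1* activity, and V6.5 iPGCs (SSEA1+/cKit bright) were sorted likewise from EBs of V6.5, a 129xBL6 F1 line. Oct4-Gfp somatic cells (Oct4-gfp-/cKit-) and V6.5 somatic cells (SSEA1-/cKit-) were the cells of the same EB stage that lacked both sort markers, and V6.5 ESCs (SSEA1+/cKit+) were undifferentiated. ESCs of the Oct4-Gfp line were not among the samples, and line, genetic background and sort marker changed together, so they cannot be told apart. Nothing in the labels says that the 2 arrays of a group were separate cultures, so the p-values measure the spread between these arrays, which may be technical.

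Eph receptors form the largest family of receptor tyrosine kinases, and both receptors and ephrins stay attached to cell surfaces, so that signals pass at cell contacts and run in both directions. A-class ephrins are held by a lipid anchor and mostly bind A-class receptors, whereas B-class ephrins cross the membrane, carry a PDZ-binding tail and mostly bind B-class receptors. The family is known for guiding axons, sorting cells at tissue boundaries and separating arteries from veins in the embryo.

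The RefSeq promoter table (GRCm38.p6) held an entry for each of the 10 genes. The 250 bases before the start of transcription are shown for 3 of them, namely *Epha2*, *Efna5* and *Efnb2*. *Epha2* was the receptor that was highest in ESCs, and *Efna5* the ligand chosen for its difference between the iPGC lines. For *Efnb2* all probe sets fell in iPGCs against somatic cells. Matches to 6 motifs, searched on both strands, are in capitals. These were the GC box GGGCGG, the CCAAT box CCAAT, the TATA box TATAAA, the octamer ATGCAAAT, the Snail E-box CAGGTG and the GATA motif AGATAA, and none of these contains another.
*Epha2*, chr4:141300971-141301220, + strand: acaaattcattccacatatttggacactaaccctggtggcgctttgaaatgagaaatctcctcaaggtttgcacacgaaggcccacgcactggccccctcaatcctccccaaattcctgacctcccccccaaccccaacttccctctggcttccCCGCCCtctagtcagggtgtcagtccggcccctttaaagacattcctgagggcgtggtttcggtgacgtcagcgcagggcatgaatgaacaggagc
*Efna5*, chr17:62881318-62881567, - strand: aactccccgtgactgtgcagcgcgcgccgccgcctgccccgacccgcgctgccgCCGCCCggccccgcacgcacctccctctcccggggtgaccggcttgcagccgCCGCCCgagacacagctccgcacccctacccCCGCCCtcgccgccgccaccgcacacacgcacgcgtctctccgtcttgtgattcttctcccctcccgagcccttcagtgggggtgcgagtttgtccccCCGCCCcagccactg
*Efnb2*, chr8:8661243-8661492, - strand: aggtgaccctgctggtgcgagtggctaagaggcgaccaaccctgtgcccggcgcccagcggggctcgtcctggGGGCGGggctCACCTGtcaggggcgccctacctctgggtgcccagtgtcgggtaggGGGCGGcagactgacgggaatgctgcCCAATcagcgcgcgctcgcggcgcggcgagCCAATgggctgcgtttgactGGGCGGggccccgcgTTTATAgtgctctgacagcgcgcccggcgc
In the *Efna5* window 4 GC boxes, 32 CpG pairs and 74.8% G or C were found, against a median of 6 CpG pairs and 52.4% G or C over 32851 promoters of the same length, of which 32.7% hold a GC box. The *Efnb2* window held 3 GC boxes, 2 CCAAT boxes (in 33.8% of promoters), 1 Snail E-box (17.2% of promoters) and 27 CpG pairs. It also held 1 TATA box (12.4% of promoters on either strand), as the reverse complement TTTATA. That match begins at position -30 counted from the start and so reads TATAAA only on the opposite strand. In the *Epha2* window 1 GC box and 9 CpG pairs were found. The octamer (1.6% of promoters) and the GATA motif (9.99%) matched in none of the 3 windows. These are matches of letters only.

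Values are the signal intensity deposited for each probe set, and the numbers given for a gene come from its tested probe set with the highest mean unless another is named. Signals of different probe sets are not comparable, so levels are compared only between arrays. Differences are on the scale of log2(signal + 14.8), which understates changes of dim probe sets, and adjusted p-values come from limma with Benjamini-Hochberg adjustment over 26368 probe sets. A gene was called at an adjusted p under 0.05. The median signal was 53.7 to 91.6 per array, and the background, taken as the 95th percentile of 44 olfactory receptor probe sets, was 12.6 to 25.4. Of 11 listed PGC markers, 10 had a probe set and all 10 lay above background on both arrays of each iPGC group, whereas *Dazl* and *Prdm14* were at background in both somatic groups. In ESCs all 10 were above background too, so presence alone does not set iPGCs apart from ESCs. Their summed signal was 23769 to 25749 in iPGCs, 2284 to 3264 in somatic cells and 11165 to 11845 in ESCs.

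**Figure D1:**
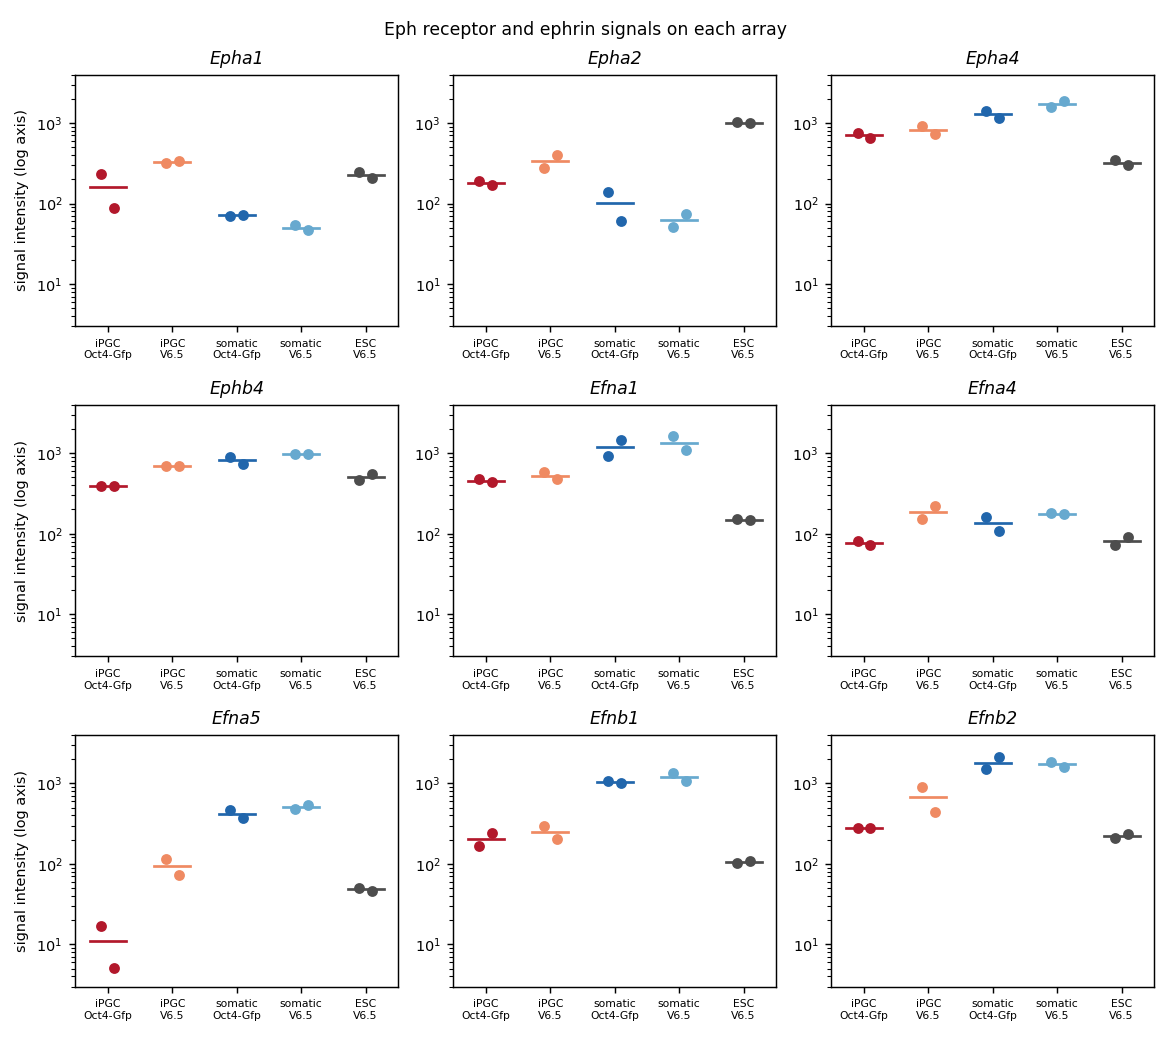
Signal intensity (log axis) of the 9 measured Eph receptor and ephrin genes on each of the 10 arrays, by cell type and line, with points for arrays and bars for the mean of the 2 arrays. *Epha1* and *Epha2* lie lowest in somatic cells, the 5 ligands and *Epha4* lie higher in somatic cells than in ESCs, and *Efna5* reaches its lowest signals, 16.9 and 5.15, in Oct4-Gfp iPGCs.

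In iPGCs against somatic cells, all 5 ligand values were negative and 4 were called lower, among them *Efna5*, *Efnb1* and *Efnb2*, while *Epha1* and *Epha2* were called higher and *Epha4* and *Ephb4* lower. Together 2 genes were called higher and 6 lower, where 33.7% of 12207 tested genes were called higher and 29.8% lower, each by its main probe set. The 6 of 9 called lower lie above the background share, while 2 of 9 called higher is near it. The members were chosen with earlier results of these data known, so these counts are not independent of that choice. *Efna5* is among the 6, and its main probe set passed the filter on low signals through somatic arrays. *Epha1* is among the 2 called higher, and its main probe set passed through iPGC and ESC arrays alone. In somatic cells against ESCs, all 9 genes were called, 7 higher and 2 lower, where 32.6% of genes were called higher and 34.7% lower. The median difference of the 5 ligands was -2.02 in iPGCs against somatic cells and 2.92 in somatic cells against ESCs, against -0.03 and 0.06 over all tested probe sets. Within V6.5, 7 were called higher and 2 lower in somatic cells against ESCs, where 30.3% and 31.8% of genes were. These comparisons share arrays and are not independent. Centring arrays on their median moved the median of all probe sets to 0.18 in iPGCs against somatic cells, and with it the calls over all probe sets to 8825 higher and 5948 lower, against 7095 and 8291 before. No called member changed direction under this or any other scaling. In somatic cells against ESCs the split became 6517 higher and 8971 lower, against 8853 and 7844 before.

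Over all 20 tested member probe sets, 2 were called higher and 16 lower in iPGCs against somatic cells, where 26.9% and 31.4% of all probe sets were. In somatic cells against ESCs, 17 were called higher and 2 lower, where 33.6% and 29.7% were. Probe sets of 1 gene share its transcript and are not independent. To be tested, a probe set had to exceed the array median on 2 or more arrays. A second *Efna5* probe set and another *Efnb1* probe set passed this filter through somatic cells alone, and the main *Efna5* probe set exceeded the median on all 4 somatic arrays, on 1 iPGC array and on no ESC array. For these 3, a higher somatic signal was thus a condition of being tested. In these bulk samples, fewer cells of a type and less RNA per cell cannot be told apart.

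*Epha1*, an A-class receptor that binds ephrin-A1, gave signals of 233 and 89.0 in Oct4-Gfp iPGCs, 315 and 341 in V6.5 iPGCs, 70.3 and 72.6 in somatic cells of Oct4-Gfp, 53.9 and 46.7 in those of V6.5, and 245 and 208 in ESCs. All 4 somatic arrays lay below all others, and iPGCs overlapped with ESCs. The log2 difference was 1.65 ± 0.24 (SE) in iPGCs against somatic cells (adjusted p = 0.000585) and -0.04 ± 0.30 in iPGCs against ESCs (adjusted p = 0.932). This probe set exceeded the array median on all 4 iPGC arrays, on both ESC arrays and on no somatic array. It thus passed the filter through the cell types in which it was higher, which limits the adjusted p-value against somatic cells. A second *Epha1* probe set differed from this one, with 0.00 ± 0.22 in iPGCs against somatic cells (adjusted p = 0.997). Another probe set, with signals of 9.44 to 42.9, was not tested. The somatic call thus rested on 1 of 2 tested *Epha1* probe sets.

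*Epha2*, a receptor of ephrin-A1 found in epithelia and in the early embryo, was the only member with its highest signals in ESCs on every array. It gave 188 and 169.5 in Oct4-Gfp iPGCs, 276 and 399.7 in V6.5 iPGCs, 141 and 61.0 in somatic cells of Oct4-Gfp, 51.6 and 73.4 in those of V6.5, and 1025 and 999 in ESCs. The 3 cell types did not overlap, with somatic cells lowest and iPGCs between. *Epha2* fell by 1.99 ± 0.29 (SE) on the log2 scale in iPGCs against ESCs (adjusted p = 0.00162), and iPGCs exceeded somatic cells by 1.51 ± 0.23 (adjusted p = 0.000797). In somatic cells against ESCs the difference was -3.49 ± 0.29 (adjusted p = 2.77e-05).

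*Epha4*, a receptor that binds ephrins of both classes, ran the other way. Its signals were 754 and 653 in Oct4-Gfp iPGCs, 925 and 725 in V6.5 iPGCs, 1396 and 1166 in somatic cells of Oct4-Gfp, 1566 and 1880.1 in those of V6.5, and 343 and 300.0 in ESCs. Again no cell types overlapped, with iPGCs between somatic cells and ESCs. *Epha4* was lower in iPGCs than in somatic cells by -0.95 ± 0.13 (SE, adjusted p = 0.000377) and higher than in ESCs by 1.20 ± 0.16 (adjusted p = 0.00112). All 4 tested *Epha4* probe sets were called lower in iPGCs against somatic cells, with differences of -0.61 to -1.05, and 2 of the 4 were called higher in iPGCs against ESCs. Another *Epha4* probe set was not tested.

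*Ephb4*, the receptor of ephrin-B2 that marks venous endothelium, gave 396 and 395 in Oct4-Gfp iPGCs, 693 and 697 in V6.5 iPGCs, 889 and 735 in somatic cells of Oct4-Gfp, 978 and 965 in those of V6.5, and 463 and 552 in ESCs. The somatic arrays lay above all others, and the iPGC lines lay on either side of the ESCs. *Ephb4* was lower in iPGCs than in somatic cells by -0.74 ± 0.10 (SE, adjusted p = 0.000434). Against ESCs, iPGCs differed by 0.05 ± 0.13 (adjusted p = 0.762), a value that averages over the gap between the lines.

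*Efna1*, the lipid-anchored ligand preferred by Epha2, was ordered opposite to *Epha2* by cell type. Its signals were 473 and 440.4 in Oct4-Gfp iPGCs, 579 and 474 in V6.5 iPGCs, 919 and 1455 in somatic cells of Oct4-Gfp, 1625 and 1087 in those of V6.5, and 153 and 146 in ESCs. The 3 cell types did not overlap. *Efna1* fell by 1.32 ± 0.18 (SE) on the log2 scale in iPGCs against somatic cells (adjusted p = 0.000414), and iPGCs exceeded ESCs by 1.62 ± 0.22 (adjusted p = 0.00132). The second *Efna1* probe set was called lower in iPGCs against somatic cells as well, but its difference between iPGCs and ESCs was 0.44 ± 0.18 (adjusted p = 0.083).

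*Efna4*, another lipid-anchored ligand, showed the smallest ligand difference in both comparisons with somatic cells. It gave 81.4 and 72.6 in Oct4-Gfp iPGCs, 153 and 218 in V6.5 iPGCs, 161 and 109 in somatic cells of Oct4-Gfp, 179 and 176 in those of V6.5, and 72.2 and 91.6 in ESCs. The iPGC arrays overlapped with both other cell types, the Oct4-Gfp arrays within the ESC range and the V6.5 arrays above it. The difference was -0.32 ± 0.16 (SE) in iPGCs against somatic cells (adjusted p = 0.11) and 0.49 ± 0.19 in iPGCs against ESCs (adjusted p = 0.075), while somatic cells were higher than ESCs by 0.81 ± 0.19 (adjusted p = 0.00656). *Efna1*, *Efna3* and *Efna4* are neighbouring genes on mouse chromosome 3 (GRCm38.p6, chr3:89271730-89280951, chr3:89313899-89322939 and chr3:89333393-89338028).

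*Efna5*, a lipid-anchored ligand that guides axons of the retina, had the largest ligand difference between iPGCs and somatic cells. The main probe set gave 16.9 and 5.15 in Oct4-Gfp iPGCs, 114 and 73.6 in V6.5 iPGCs, 474 and 368 in somatic cells of Oct4-Gfp, 479.8 and 544 in those of V6.5, and 50.2 and 46.5 in ESCs. All somatic arrays lay above all others, and both Oct4-Gfp iPGC arrays were below their background of 17.5 and 16.9. *Efna5* fell by 3.20 ± 0.19 (SE) on the log2 scale in iPGCs against somatic cells (adjusted p = 4e-06). This probe set passed the filter through somatic arrays, with 1 iPGC array and no ESC array over the median. A higher somatic signal was thus a condition of its being tested, which limits the adjusted p-values given here. In the Oct4-Gfp line iPGCs were at least 24.3-fold lower than somatic cells, a bound set by the background of these arrays, with an adjusted p of 1.82e-05. In the V6.5 line the difference was -2.30 ± 0.26 (adjusted p = 0.000266).

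The B-class ligands *Efnb1*, an X-linked gene, and *Efnb2*, a marker of arterial endothelium, were both far higher in somatic cells. *Efnb1* gave 165 and 245 in Oct4-Gfp iPGCs, 292 and 204 in V6.5 iPGCs, 1062 and 1006 in somatic cells of Oct4-Gfp, 1363 and 1057 in those of V6.5, and 103 and 109.9 in ESCs. *Efnb2* gave 277 and 279 in Oct4-Gfp iPGCs, 892 and 446 in V6.5 iPGCs, 1526 and 2109 in somatic cells of Oct4-Gfp, 1826 and 1615 in those of V6.5, and 211 and 238 in ESCs. For both genes no cell types overlapped, with iPGCs between somatic cells and ESCs. *Efnb1* fell by 2.25 ± 0.17 (SE) on the log2 scale in iPGCs against somatic cells (adjusted p = 1.25e-05), and *Efnb2* fell by 2.02 ± 0.21 (adjusted p = 8.89e-05). The 3 tested *Efnb1* and 4 tested *Efnb2* probe sets were all called lower in this comparison. For 1 of the *Efnb1* probe sets, which passed the filter through somatic cells alone, a higher somatic signal was a condition of being tested.

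**Figure D2:**
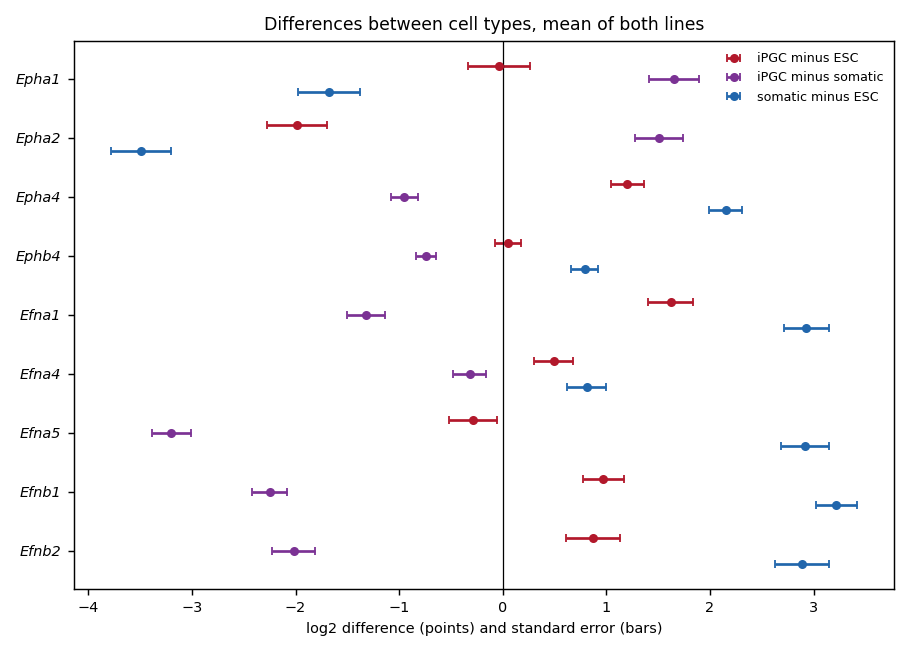
Log2 differences (points) and standard errors (bars) for each measured gene, for iPGCs minus ESCs, iPGCs minus somatic cells and somatic cells minus ESCs, averaged over both lines where both were measured. In iPGCs minus somatic cells the ligands run between -0.32 for *Efna4* and -3.20 for *Efna5*, whereas *Epha1* and *Epha2* are at 1.65 and 1.51.

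In the plot of cell type differences, *Epha1* and *Epha2* stand on the opposite side from the other members in both comparisons with somatic cells. Within the V6.5 line, 2 genes were called higher and 6 lower in iPGCs against somatic cells, where 27.3% of genes were called higher and 24.2% lower. Within the Oct4-Gfp line, 7 were called lower and none higher, where 24.8% were called lower and 25.7% higher. There *Epha1* was 0.90 ± 0.34 (SE) higher in iPGCs and *Epha2* 0.83 ± 0.33 higher, with adjusted p-values of 0.0632 and 0.0727, and *Efna4* was called lower at -0.69 ± 0.22 (adjusted p = 0.0342). After quantile normalization the calls over all probe sets were 6319 higher and 5559 lower and after median centring 8719 and 4019, against 5114 and 7289 before, so the background share of this comparison depends on the scaling. Both receptor values passed the threshold after quantile normalization, after median centring and with limma-trend. The *Epha1* value was 0.27 without Oct4-Gfp iPGC replicate 1 (adjusted p = 0.268) and 1.52 without replicate 2 (adjusted p = 0.0011). The *Epha2* value was 1.35 without Oct4-Gfp somatic replicate 1 (adjusted p = 0.00833) and 0.31 without replicate 2 (adjusted p = 0.385). The *Efna4* call was lost under 13 of 23 alternatives. After median centring the *Epha4* and *Ephb4* calls of this line were lost too. The V6.5 call of *Ephb4*, -0.47 ± 0.15 (adjusted p = 0.0295), was lost under 7 alternatives, each V6.5 iPGC and somatic array left out among them, with adjusted p-values up to 0.115.

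Markers of other cell types moved with these differences. Somatic cells held the higher summed signals of 9 mesoderm and heart markers (20286 to 21644, against 725 to 1308 in iPGCs and 627 to 654 in ESCs), of 7 endoderm markers (5209 to 5935, against 359 to 653 in iPGCs and 301 to 403 in ESCs) and of 11 fibroblast markers (22331 to 28896, against 9651 to 10753 in iPGCs and 10440.2 to 11090.3 in ESCs). Within the mesoderm and heart list *Myl7* was called lower in somatic cells than in ESCs. There *Mesp1* was not called between the cell types, and *Nkx2-5* was at background in all groups. The endoderm sum was carried in large part by *Cxcr4* and *Gata6*, with somatic means of 2813 and 2028, and *Apoa1* was not called between somatic cells and ESCs. Within the fibroblast list *Lox* and *Thy1* were called lower in somatic cells than in ESCs. The sum of 12 endothelial and blood markers was 4959 to 18546 in somatic cells, against 774 to 1132 in iPGCs and 896 to 1021 in ESCs, and was carried in large part by the embryonic globins *Hbb-bh1* and *Hba-x*, with somatic means of 5235 and 2632. Of its endothelial members, *Kdr* and *Tek* were called lower in iPGCs than in somatic cells, by -4.26 and -2.04, but *Pecam1* and *Cldn5* were called higher, by 0.87 and 1.72, and *Emcn* was at background in both somatic groups. The sums of 8 pluripotency markers (30723 to 34997 in iPGCs, 628 to 3939 in somatic cells and 42678 to 43898 in ESCs) and of 7 neural ectoderm markers (1194 to 1849.7 in iPGCs, 675 to 1064 in somatic cells and 3036 to 3193 in ESCs) were lowest in somatic cells, as *Epha1* and *Epha2* were. Members of these lists that went the other way were *Fut4*, *Nes* and *Zic1*. They were called higher in somatic cells than in both iPGCs and ESCs. The part of these cell types in the results was not tested.

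Against ESCs, iPGCs had higher signals of 3 of the 5 ligands and of *Epha4*, and lower signals of *Epha2*. In the comparison over both iPGC groups, *Epha4*, *Efna1*, *Efnb1* and *Efnb2* were called higher and *Epha2* lower, where 24.5% of genes were called higher and 21.0% lower. Both counts, 4 and 1 of 9, are near the background shares. *Efnb1* was higher by 0.97 ± 0.20 (SE, adjusted p = 0.00721), and the second of its probe sets was called as well at 0.57 ± 0.15 (adjusted p = 0.0183). The third tested *Efnb1* probe set was not called, with overlapping signals of 14.5 to 48.9 in iPGCs and of 5.88 and 48.4 in ESCs. *Efnb2* was higher by 0.87 ± 0.26 (adjusted p = 0.03), a call that was lost under 9 of 23 alternatives. The other *Efnb2* probe sets disagreed, with 0.97 ± 0.27 (adjusted p = 0.0239), 0.11 ± 0.21 (adjusted p = 0.701) and -0.28 ± 0.33 (adjusted p = 0.528). Over all 20 probe sets, 7 were called higher and 2 lower, where 21.2% and 20.7% of all probe sets were.

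Within the V6.5 line, *Epha4*, *Efna1*, *Efna4*, *Efnb1* and *Efnb2* were called higher in iPGCs than in ESCs and *Epha2* lower, where 17.3% of genes were called higher and 12.9% lower. The values were 1.31 ± 0.18 for *Epha4* (SE, adjusted p = 0.00274), 1.71 ± 0.26 for *Efna1* (adjusted p = 0.00361) and 1.44 ± 0.30 for *Efnb2* (adjusted p = 0.0122). *Efna4* was higher by 1.04 ± 0.22 (adjusted p = 0.0129) and *Efnb1* by 1.10 ± 0.23 (adjusted p = 0.0131). This *Efnb1* call was lost under 6 of 23 alternatives, the mean of its probe sets among them. *Epha2* was lower by -1.57 ± 0.33 (adjusted p = 0.0128). The *Epha2* and *Efnb2* calls were each lost under 5 alternatives, the *Gapdh* and *Actb* ratios described below among them. The *Efna4* call was lost under 3, and those of *Epha4* and *Efna1* held under all 23. After median centring 2023 of all probe sets were called higher and 3176 lower, against 4101 and 3079 before. Without ESC replicate 1 only 2 genes were called, and without ESC replicate 2 only 3, where the remaining ESC array is assumed to vary like the other groups.

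The 2 *Efna5* probe sets disagreed between iPGCs and ESCs. The main one gave -0.29 ± 0.23 (SE, adjusted p = 0.348) over both iPGC groups and 0.76 ± 0.26 (adjusted p = 0.0668) within V6.5, whereas the second gave -1.48 ± 0.34 (adjusted p = 0.0107) and -1.16 ± 0.39 (adjusted p = 0.0615). The ratio of 3' to 5' *Gapdh* signal, a measure of RNA quality and labelling, was 2.02 and 2.37 in iPGCs of the Oct4-Gfp line, 1.51 and 1.63 in those of V6.5, 1.65 to 2.05 in somatic cells, and 1.30 and 1.28 in ESCs. With this ratio as a covariate 1 of 9 genes was called in iPGCs against ESCs, *Epha4* alone, and with the *Actb* ratio none, where 502 and 1044 of 26368 probe sets were called. Both ratios were lowest on the ESC arrays, so their part cannot be told apart from that of the cell type. In iPGCs against somatic cells 8 genes were called in all 3 fits.

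The comparison of lines rested on *Efna5*, which had been chosen for its difference between the iPGC lines, so its values are a description without a test. With the main probe set the Oct4-Gfp arrays, 16.9 and 5.15, lay below the V6.5 arrays, 114 and 73.6, and the fitted difference was -2.09 ± 0.26 (SE). Since both Oct4-Gfp arrays were below background, Oct4-Gfp iPGCs were at least 5.34-fold lower. The second probe set gave 2.78 and 1.88 in Oct4-Gfp iPGCs, against 28.6 and 1.37 in V6.5 iPGCs, so that the lines overlapped and only 1 of the 4 arrays was above background. Its fitted difference was -0.63 ± 0.39. The separation of the lines in *Efna5* thus appeared with 1 of 2 probe sets. In somatic cells *Efna5* was 421 ± 75.1 in Oct4-Gfp and 512 ± 45.1 in V6.5 (mean signal ± SD, n = 2 each), a log2 difference of -0.28 ± 0.26 (SE, adjusted p = 0.689).

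**Figure D3:**
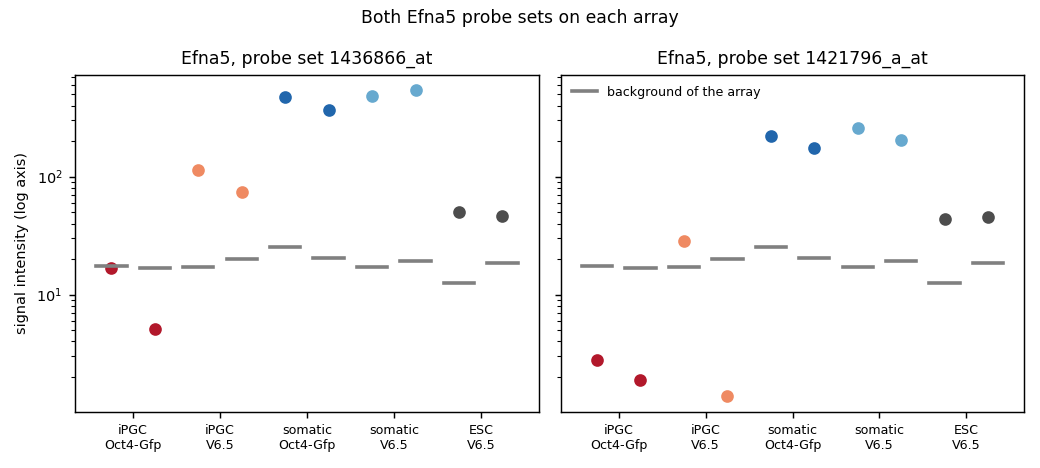
Signal intensity (log axis) of both *Efna5* probe sets on each array, with points for arrays and grey bars for the background of each array. With the main probe set the V6.5 iPGC arrays lie above background at 114 and 73.6 and the Oct4-Gfp iPGC arrays below it, whereas with the second probe set only 1 iPGC array, at 28.6, lies above background.

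The 8 other measured genes were not called between the iPGC lines, and none of the 26368 probe sets was (0.0%), although 5 of the 8 and 21.0% of all probe sets had an unadjusted limma p under 0.05. The values of all 8 were negative, as were those of 60.7% of all probe sets, though 3 of the 8 changed sign when arrays were centred on their median. *Efnb2* was lower in Oct4-Gfp by -1.14 ± 0.30 (SE, adjusted p = 0.106), *Efna4* by -1.11 ± 0.22 (adjusted p = 0.0751), *Epha1* by -1.09 ± 0.34 (adjusted p = 0.144), *Epha2* by -0.84 ± 0.33 (adjusted p = 0.207) and *Ephb4* by -0.79 ± 0.15 (adjusted p = 0.0698). *Epha4*, *Efna1* and *Efnb1* lay between -0.19 and -0.26 and were the 3 that changed sign under this centring, which moves the median of all probe sets to 0.21 here, against -0.10 before. With limma-trend, which lets the variance depend on the mean, *Ephb4*, *Efna4* and *Efnb2* were called lower, as were 740 probe sets, with 192 higher.

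**Figure D4:**
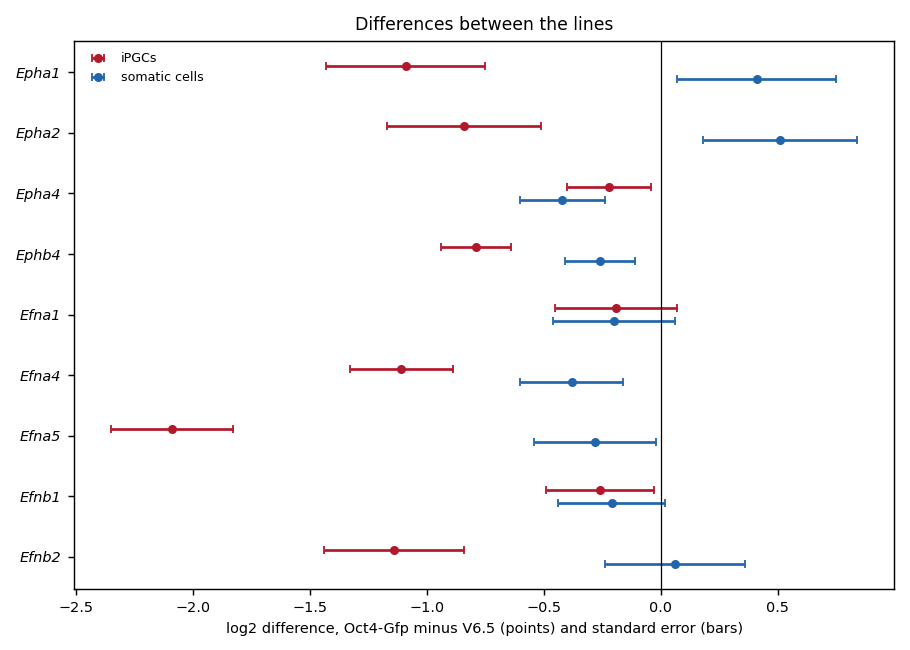
Log2 differences (points) and standard errors (bars) of Oct4-Gfp minus V6.5 for each measured gene, in iPGCs and in somatic cells. All 9 iPGC values are negative, from -0.19 for *Efna1* to -2.09 for *Efna5* (*Epha4*, *Efna1* and *Efnb1* turn positive after median centring), while the somatic values lie between -0.42 and 0.51.

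The plot of line differences also shows the somatic cells, in which none of the 9 genes was called and none had an unadjusted p under 0.05, where 22 of all probe sets (0.0834%) were called and 12.5% had such a p. The difference between lines in the comparison of iPGCs with somatic cells, tested as an interaction, was called for none of the 8 tested genes and for 4 of all probe sets (0.0152%), while 5 of the 8 had an unadjusted p under 0.05, against 10.5% of all probe sets. Its value was -1.81 ± 0.37 (SE) for *Efna5*, again without a test, and -1.20 ± 0.43 for *Efnb2* (adjusted p = 0.427). The *Gapdh* ratio, higher in Oct4-Gfp than in V6.5 iPGCs, moved with the line, and with it as a covariate the *Efna5* difference between iPGC lines was -1.16.

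Among the 12 other Eph and ephrin genes with a probe set, 6 had a tested one. *Efnb3*, another B-class ligand, gave 149 and 138 in Oct4-Gfp iPGCs, 219 and 229 in V6.5 iPGCs, 702 to 1030.2 on the 4 somatic arrays, and 65.1 and 89.1 in ESCs, without overlap between cell types. It was lower in iPGCs than in somatic cells by -2.19 ± 0.12 (SE, adjusted p = 3.2e-06) and higher than in ESCs by 1.09 ± 0.15 (adjusted p = 0.00127). *Ephb3*, a B-class receptor, was higher in iPGCs than in ESCs by 1.12 ± 0.19 (adjusted p = 0.00279) and differed from somatic cells by 0.13 ± 0.15 (adjusted p = 0.498). *Ephb1*, also a B-class receptor, was at background on both ESC arrays, so that iPGCs were at least 3.32-fold higher (adjusted p = 0.00421), while it was lower in iPGCs than in somatic cells by -1.17 ± 0.28 (adjusted p = 0.00726). *Efna3*, an A-class ligand, was lower in iPGCs than in somatic cells by -1.10 ± 0.18 (adjusted p = 0.000894). By class, the 3 B-class ligands were all called lower in iPGCs against somatic cells (29.8% of genes) and higher against ESCs (24.5% of genes), and of the 5 A-class ligands 3 were called lower against somatic cells and 1, near the background share, higher against ESCs. *Efna2*, an A-class ligand, and *Epha7*, an A-class receptor, were tested too. *Epha7* was lower in iPGCs than in somatic cells by -0.48 ± 0.17 (adjusted p = 0.0377), and *Efna2* was called in neither comparison. The *Epha7* probe set exceeded the array median on no iPGC array and mainly on somatic arrays. The *Ephb1* probe set did so on every somatic array and otherwise only on V6.5 iPGC replicate 1. Both thus passed the filter largely through somatic cells, which limits their calls against these cells.

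Genes listed as acting downstream were set beside the family. Of 11 tested exchange factors and GTPase activators, 2 were called higher and 6 lower in iPGCs against somatic cells, with a median of -0.69, where the background shares were the 33.7% and 29.8% given above. *Kalrn*, a guanine nucleotide exchange factor, fell by 2.71 ± 0.11 (SE) on the log2 scale (adjusted p = 9.51e-07), *Vav3*, which activates Rac, by 2.63 ± 0.35 (adjusted p = 0.000347) and *Rgs3*, which in mouse binds the tail of B-class ephrins, by 2.34 ± 0.13 (adjusted p = 3.1e-06). *Vav2* was 1.33 ± 0.18 higher in iPGCs than in ESCs (adjusted p = 0.0012) and lower than in somatic cells by -0.79 ± 0.15 (adjusted p = 0.00192). Among 13 adaptors and kinases, 3 were called higher and 6 lower against somatic cells, with a median of -0.34. *Grb10*, an adaptor that restrains growth, fell by 2.54 ± 0.18 (adjusted p = 9.48e-06) and the related *Grb7* was 2.17 ± 0.18 higher (adjusted p = 2.64e-05). *Ryk*, a receptor-like protein without kinase activity, fell by 1.22 ± 0.09 (adjusted p = 1.58e-05), and the adaptor *Nck2* by 0.66 ± 0.15 (adjusted p = 0.00638). Against ESCs, *Nck2* was 1.05 ± 0.19 higher in iPGCs (adjusted p = 0.0037).

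Of 5 tested phosphatases and proteases, 4 were called lower in iPGCs against somatic cells, where 29.8% of genes were, and 3 higher against ESCs, where 24.5% were. *Ptpn13*, a PDZ phosphatase, fell by 2.44 ± 0.17 (SE) on the log2 scale against somatic cells (adjusted p = 8.32e-06) and was 2.29 ± 0.20 higher than in ESCs (adjusted p = 0.000279). The 5 tested PDZ partners had 2 higher and 3 lower calls against somatic cells, where 33.7% of genes were called higher and 29.8% lower, with *Pard6b*, a polarity protein, at -1.74 ± 0.13 (adjusted p = 1.46e-05) and *Grip1*, a scaffold that binds ephrin-B tails, at -1.62 ± 0.28 (adjusted p = 0.00131).

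Across the 10 arrays, which share the grouping into 3 cell types, *Efnb1* and *Efnb2* were the most alike pair of members, with a Pearson r of 0.96 between their log2 signals. *Ephb4* and *Efna5* reached 0.95, and *Epha2* and *Efna1* ran opposite, with r = -0.96. The gene most like *Efnb1* was *Hapln1*, at r = 0.997, followed by *Kdr* at 0.994. For *Efnb2* it was *Car4* at 0.995, for *Efna5* it was *Cplx2* at 0.986, for *Epha2* it was *Ubox5* at 0.988 and for *Ephb4* it was *Slc4a2* at 0.988. These values are descriptions over the same 10 arrays.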

How the data were processed

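Signal intensities of 10 Affymetrix arrays of the mouse genome were used as deposited. They are linear intensity values that the authors computed with MAS5 (version not given in the sources used here), as the submitters' processing notes name it, and a trimmed mean of 500 per array (2% left out at each end) was found in the values. The methods of the study name D-Chip instead, and such values were not used here. RNA had been amplified and labelled with the NuGEN Ovation Pico WTA System. Arrays have no read depth, and their number limits the precision.

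After 64 control probe sets were left out, the log2 of the signal plus 14.8 (the 25th percentile of the table) was modelled in limma 3.58.1 (R 4.3.3), with 5 groups and 5 residual and 2.92 prior degrees of freedom. Tests covered the 26368 of 45101 probe sets that exceeded the array median on 2 or more arrays, with Benjamini-Hochberg adjustment. Symbols came from the platform annotation (34945 probe sets with 1 symbol, 932 with several and 9211 with none). A gene was represented by its tested probe set with the highest mean, 12207 genes in all. Where a probe set was at background on all arrays of a group, a fold was given as a bound against that background.

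The members, the gene lists and the tests were chosen with earlier results of these data known. Other genes were named if they were called with an absolute log2 difference of at least 1 against ESCs or somatic cells, up to 4 for each list, and likeness was the highest Pearson r over the 10 arrays. The result of 1 list is not reported here. The fit was tested on simulated data. There were 23 alternatives, of which the *Gapdh* and *Actb* ratios as covariates were added after seeing the data. Sequences and positions are from RefSeq (GRCm38.p6). Plots were drawn with matplotlib 3.10.9.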

Additional observations from a re-analysis of the deposited data

Results flagged for a closer look

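In somatic cells the *Efnb1* signal of V6.5 replicate 1, 1363, lay apart from the other 3 arrays, which ranged from 1006 to 1062. The gap was large for a group of 4 arrays, which here come from 2 lines. Chance alone sets apart an array in about 1 in 20 such groups, and no other member was singled out in this way. Since several members were looked at, an array set apart like this can arise by chance.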

How the results depend on the processing

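Each count of called genes was recomputed under 23 alternatives. In iPGCs against ESCs 5 genes were called, with 1 when the *Gapdh* ratio and 0 when the *Actb* ratio was a covariate, both of which were lowest on the ESC arrays, and 4 to 6 with 1 array left out. In V6.5 iPGCs against ESCs 6 were called, with 3 under the *Actb* ratio and 2 to 8 with 1 array left out, the lowest without ESC replicate 1. Between the iPGC lines 0 were called and 3 under limma-trend, which called 932 of all probe sets, and 0 with any array left out. The cause was not tested. The counts in iPGCs against somatic cells (8), the same within V6.5 (8) and Oct4-Gfp (7), somatic cells against ESCs (9), the same within V6.5 (9), between the somatic lines (0) and for the difference between lines (0) stayed within 1.5 times under all alternatives, and both counts of 0 stayed at 0. With 1 array left out they were 8 to 9, 7 to 8, 6 to 7, 8 to 9, 9, 0 and 0.

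The replicate numbers were not used to pair the arrays in the main fit. The deviations of same-numbered arrays correlated between -0.29 and 0.26 over 10 pairs of groups, which cannot exclude a pairing. With the replicate number as a block the counts were 5 in iPGCs against ESCs, 7 within V6.5, 8 in iPGCs against somatic cells, 8 within V6.5, 6 within Oct4-Gfp, 9 in somatic cells against ESCs, 9 within V6.5, and 0 for both line comparisons and for the difference between lines.

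Over 2070 values of single genes under the alternatives, 1938 kept their sign and side of the threshold, 62 lost and 31 gained a call, and 39 changed sign. None of these 39 was called before or after. In iPGCs against ESCs *Epha1* was 0.01 after quantile normalization, 0.04 with the mean of probe sets, 0.77 and 0.24 with the *Gapdh* and *Actb* ratios and -0.35 to 0.28 with 1 array left out, *Ephb4* was -0.07 to 0.18 with 1 array left out, and *Efna5* was 0.59 with the *Gapdh* ratio. Within V6.5 *Efna5* was -0.20 against ESCs with the mean of probe sets, and *Efna4* against somatic cells was -0.08 with the *Gapdh* ratio and -0.20 to 0.27 with 1 array left out. Between the iPGC lines *Epha4*, *Efna1* and *Efnb1* were 0.10, 0.12 and 0.06 after median centring, *Epha2* and *Epha4* were 0.02 and 0.23 with the *Gapdh* ratio, and *Efnb1* was -0.52 to 0.00 with 1 array left out. Between the somatic lines *Efnb2* was -0.09 after median centring, 0.00 with the mean of probe sets, -0.11 with the *Actb* ratio and -0.17 to 0.29 with 1 array left out, *Epha2* was -0.02 to 1.03 and *Efna1* -0.53 to 0.13. In the difference between lines *Epha4* was -0.01 and *Efna1* -0.29 with the mean of probe sets, *Efna1* was -0.34 and -0.21 with the *Gapdh* and *Actb* ratios and -0.32 to 0.33 with 1 array left out, and *Efnb1* was 0.17, 0.42 and 0.45 after quantile normalization, median centring and the mean of probe sets, and -0.31 to 0.22 with 1 array left out. The cause was not tested.

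Signal over background limits *Efna5* in iPGCs, where 3 of 4 arrays were at background with the second probe set.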
